A study of Mus musculus with 12 samples.

Results

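Replication-dependent histone genes encode the bulk of the core histones H2A, H2B, H3 and H4 and the linker histone H1. They were taken here as every gene whose symbol begins with Hist1h, Hist2h, Hist3h or Hist4h, which gave 70 of the 43280 genes in the count table. By the histone type in their symbol, 6 were H1, 20 H2A, 19 H2B, 12 H3 and 13 H4 genes. Of these 70, 48 passed the filter on low counts and were tested (5 H1, 9 H2A, 15 H2B, 9 H3 and 10 H4), among 17030 genes tested in all. The annotation GENCODE M21 lists the members Hist1h2aj, Hist1h2al and Hist3h2bb-ps as pseudogenes, and of these only Hist1h2al was tested.

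The cells came from the submandibular gland of mouse embryos at embryonic day 15, all of the strain Tg(KRT5-Venus)1Sgkd, in which the fluorescent protein Venus is driven by the keratin 5 promoter. Cells of all 4 groups had been sorted as E-cadherin positive. The sort divided them further by surface Kit, the stem cell factor receptor, and by Venus (K5), which gave Kit+ K5+ and Kit+ K5- cells, and likewise Kit- K5+ and Kit- K5- cells, with 3 libraries each. No treatment or other allele is named in the labels. The sources used here do not say how many embryos or litters went into a library, so the p-values measure the spread between these libraries only. Total RNA was sequenced as single reads of 50 nt, and each library held 5589037 to 13724364 counts, of which 2530 to 9116 fell on histone genes. Levels are in CPM, the count scaled by library size after TMM (edgeR's correction for library composition). A difference is a fitted log2 difference with its standard error, and adjusted p-values are from edgeR's quasi-likelihood test with Benjamini-Hochberg adjustment over all genes tested, called at 0.05.

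Kit transcripts matched the sort, at 283 to 445 CPM in the 6 Kit+ libraries and 10.03 to 26.4 CPM in the 6 Kit- libraries. Krt5 transcripts did so only in part: they stood at 13.5 to 22.9 CPM in Kit- K5+ cells, but at 1.57 to 9.93 CPM in Kit+ K5+ cells, which overlapped the 0.317 to 7.15 CPM of the 6 K5- libraries. By several marker genes and lists, the Kit- K5- libraries stood apart from the other 9. Their Cdh1 (E-cadherin) was 149 to 198 CPM against 503 to 1111 CPM elsewhere, and 16 mesenchyme genes (collagens, Pdgfra, Vim and the like) summed to 13155 to 21451 CPM in them against 528 to 1142 CPM elsewhere. None of these 16 genes was at 0 in all libraries. Genes of the epithelium list summed to 438 to 570.5 CPM in them and to 1493 to 3198 CPM elsewhere. Erythroid genes summed to 139 to 786 CPM against 14.4 to 29.0 CPM, neuron and glia genes to 75.5 to 196 CPM against 7.56 to 22.8 CPM, and endothelium genes to 53.5 to 68.2 CPM against 8.76 to 29.1 CPM. Mitochondrially encoded genes took 5.59% to 12.2% of counts in Kit- K5- cells and 10.96% to 30.9% in the other libraries, which overlapped at Kit+ K5- replicate 1 (10.96%). The sums of these marker lists therefore move with both comparisons that use Kit- K5- cells, and the mitochondrial share does so with an overlap in K5- cells. Their part in the histone differences was not tested. Other marker lists overlapped. Salivary gland epithelium genes summed to 408 to 2075 CPM in Kit- K5- libraries and 885 to 6182 CPM elsewhere. Leukocyte and macrophage genes summed to 336 to 1305 CPM against 64.6 to 581 CPM, the latter highest in Kit+ K5- replicate 1. The part of these lists was not tested either. In sorted bulk samples, fewer cells that express histone genes and less histone RNA per cell cannot be told apart.

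Cells make these histones while they copy their DNA, when new chromatin has to be packed, and the transcripts are abundant in S phase and are degraded when replication ends. H2A, H2B, H3 and H4 form the nucleosome core, and H1 binds the linker DNA between nucleosomes. The genes lack introns, lie in clusters, and their mRNAs usually end in a conserved stem-loop in place of a poly(A) tail. The stem-loop is bound by Slbp, and the U7 small nuclear ribonucleoprotein directs the cleavage behind it. In the embryonic gland, end bud and duct epithelium proliferate during branching, and the Kit receptor and keratin 5 mark progenitor populations there.

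On GRCm38, with positions from GENCODE M21, 24 members lay in the Hist1 block chr13:21715763-22043676 and 31 in the Hist1 block chr13:23531050-23934851. The pseudogene Hist1h2al lay alone at chr13:51202727-51203065. The Hist2 cluster held 10 members at chr3:96219865-96270132, the Hist3 cluster 3 at chr11:58948920-58956830, and Hist4h4 lay alone at chr6:136801553-136804415. H2A and H2B genes often stood head to head: 14 such pairs had starts 173 to 306 bases apart on opposite strands.

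The stem-loop is shown because it decides how the mRNA ends and separates the H4 genes from the others. A search of the GENCODE M21 transcripts on their own strand for 16 bases (GG, any 2 bases, CTTTT, any base, AG, any base, GCC) found them in 42 of the 70 members, or 60% of them, and in 10 of 55271 other genes (0.0181%). Hist1h1e, Hist1h2bm and Hist1h4d are the most abundant H1, H2B and H4 genes, and Hist1h3e and Hist2h4 show less common loops. Capitals mark the 16 bases of the stem and loop, with 7 bases on either side.
Hist1h1e: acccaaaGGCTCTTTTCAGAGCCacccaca
Hist1h2bm: acacaaaGGCTCTTTTCAGAGCCactaagc
Hist1h3e: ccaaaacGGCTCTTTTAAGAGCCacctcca
Hist1h4d: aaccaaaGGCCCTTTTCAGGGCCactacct
Hist2h4: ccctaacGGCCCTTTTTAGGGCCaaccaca
The commonest form, that of Hist1h1e and Hist1h2bm, was found in 26 members. Counted from 1 at the 5′ end of the 16 bases, Hist1h4d differed from it by T4C and A13G, a changed base pair of the stem that all 9 matching H4 genes shared and none of the 33 other matching members had. Hist1h3e differed from the commonest form by C10A in the loop, as did 5 other members, and Hist2h4 by T4C, C10T and A13G. No match means only that these letters are not in the annotated transcript. Several annotated transcripts run on past the stem-loop: 17 members had 300 or more bases after it, among them Hist1h4d with 770 and Hist1h1e with 1153. In Hist1h4d these bases hold a poly(A) signal (AATAAA or ATTAAA), and in Hist1h1e they do not. Whether the counts of such members come from mRNA ending in the stem-loop or in poly(A) was not tested.

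Promoters are shown for Hist1h2bb, Hist1h2bm and Hist1h4d, an H2B gene that changed, the most abundant H2B gene, and the most abundant member. They are 120 bases before the start, from RefSeq on GRCm38.p6, in which 62 members had an entry. Capitals mark the octamer ATTTGCAT (known as the binding site of Oct-1, the product of Pou2f1), the CCAAT box and TATAAA on either strand, so that ATTGG is a CCAAT box read on the other strand. No marked motifs overlap.
Hist1h2bb, chr13:23746614-23746733, plus strand: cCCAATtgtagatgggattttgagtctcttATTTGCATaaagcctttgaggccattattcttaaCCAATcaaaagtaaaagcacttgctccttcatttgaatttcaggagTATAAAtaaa
Hist1h2bm, chr13:21721924-21722043, plus strand: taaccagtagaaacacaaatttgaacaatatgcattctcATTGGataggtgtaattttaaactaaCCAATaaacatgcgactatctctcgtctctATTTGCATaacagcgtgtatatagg
Hist1h4d, chr13:23581448-23581567, plus strand: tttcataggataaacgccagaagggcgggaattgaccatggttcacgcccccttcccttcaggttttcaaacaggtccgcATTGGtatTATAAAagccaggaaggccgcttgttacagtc
Over 250 bases before the start and on both strands, ATTTGCAT was found in 6 of 16 H2B and 7 of 18 H2A promoters and in 0 of the H1, H3 and H4 promoters. That is 21% of the members' promoters, against 1.6% of 32851 promoters in the table. CCAAT stood in 82.3% of the members' promoters against 33.8% of all, but in only 3 of 12 H4 promoters. TATAAA stood in 46.8% against 12.4%, and TTTNGCGC, an E2F-type sequence, in 17.7% against 1.1%, all of them H2A (4) or H2B (7) genes. These are matches of letters, not measured sites.

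How well a member can be measured depends on how much of it is unlike its copies. Of the 48 tested members, 30 had at least 50% of their 50-base windows in no other gene's transcript. The share was 89.8% for Hist1h4d and 100% for Hist1h1b, but 17.2% for Hist1h2bl, 9.88% for Hist1h2ai and 34.2% for Hist1h2bf, whose single values are therefore uncertain, since the sources used here do not say how reads with several matches were counted. At 0 counts in all 12 libraries were 6 members (Hist1h2br, Hist1h4m, Hist2h2aa1, Hist2h2aa2, Hist2h3b and Hist2h3c1), and no more than 11.3% of their windows were unlike other genes. A 0 there does not bear on expression. The remaining 16 members not tested held 1 to 70 counts over all libraries, with a mean of at most 0.640 CPM. Annotated exons of Hist1h1e and Hist1h2be overlap, so their reads in that stretch cannot be told apart. Other members overlap genes outside the family. In Hist3h2a, 708 of 2146 exon bases lie under Trim17 or Gm44313, and Hist1h2ak and Hist1h2ai each have 138 of 393 under another gene. How reads there were counted is not stated.

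**Figure D1:**
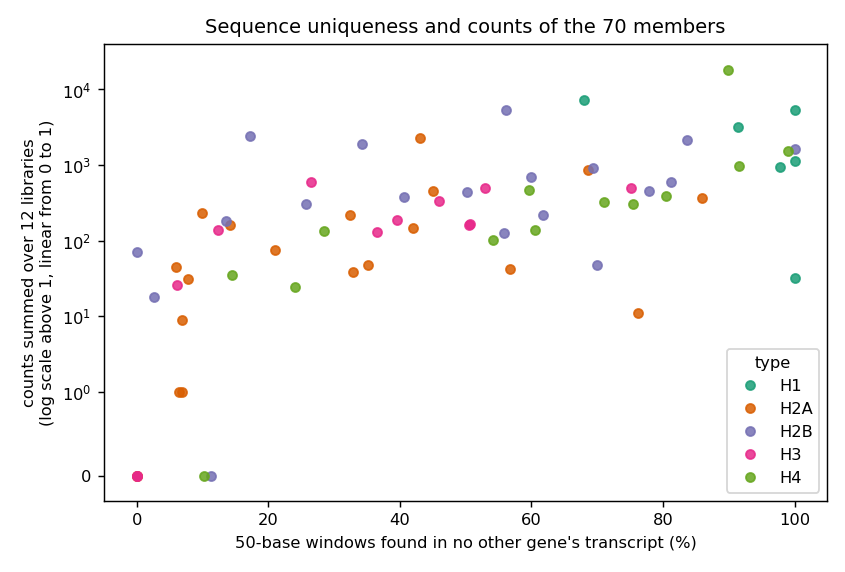
Each point is 1 of the 70 histone genes. The x axis gives the share of its 50-base windows found in no other gene's transcript (%), the y axis its counts summed over 12 libraries (log scale above 1, linear from 0 to 1), and colours give the histone type. The members at 0 counts all lie at 11.3% or less, and the member with the most counts, Hist1h4d, lies at 89.8%.

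Histone transcripts were most abundant in Kit+ cells. The 70 members summed to 963, 947 and 778 CPM in the Kit+ K5- libraries (replicates 1, 2 and 3) and to 836, 793 and 451 CPM in the Kit+ K5+ libraries. In Kit- K5+ cells the sums were 391, 419 and 484 CPM, and in Kit- K5- cells 298, 382 and 345 CPM. All 3 Kit+ K5- libraries lay above all 6 Kit- libraries, whereas Kit+ K5+ replicate 3 lay inside the Kit- K5+ range. The ratio of Kit+ to Kit- group means was 2.62 in K5- cells and 1.61 in K5+ cells, or 1.89 without Kit+ K5+ replicate 3. The ratio of K5+ to K5- means was 0.774 in Kit+ cells and 1.26 in Kit- cells.

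A few genes carried most of these counts. The H4 gene Hist1h4d alone made up 22.1% to 33.3% of all histone counts in a library, at a mean of 164 CPM, followed by the linker histone genes Hist1h1e (63.9 CPM) and Hist1h1b (48.1 CPM) and the H2B gene Hist1h2bm (47.7 CPM). Per kb of annotated exon, Hist1h4d stood at 144, Hist1h2bm at 91.1 and Hist1h1b at 64.7 CPM, and Hist1h1e, whose annotated exons are longer, at 33.1 CPM. By type, H4 genes summed to 252 ± 70.4 CPM in Kit+ K5+ cells, 292 ± 45.9 CPM in the Kit+ K5- group, 168 ± 18.5 CPM in Kit- K5+ cells and 99.8 ± 17.2 CPM in the Kit- K5- group (mean ± SD, n = 3 libraries each). H2B genes gave 199 ± 61.5, 232 ± 31.5, 115 ± 30.9 and 97.4 ± 20.4 CPM, and H1 genes 162 ± 58.6, 260 ± 46.7, 106 ± 7.94 and 105 ± 9.19 CPM in the same order. H2A genes were lower, at 44.4 ± 14.5, 77.0 ± 20.1, 25.7 ± 5.1 and 28.2 ± 4.56 CPM, as were H3 genes at 35.5 ± 12.1, 34.5 ± 3.51, 17.5 ± 5.51 and 10.8 ± 1.3 CPM. These sums also depend on how reads shared between copies were counted, which is not stated. Hist2h2aa1, Hist2h2aa2, Hist2h3b and Hist2h3c1 had 0% unique windows, against 89.8% for Hist1h4d. Low H2A and H3 sums are therefore not read as low expression.

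**Figure D2:**
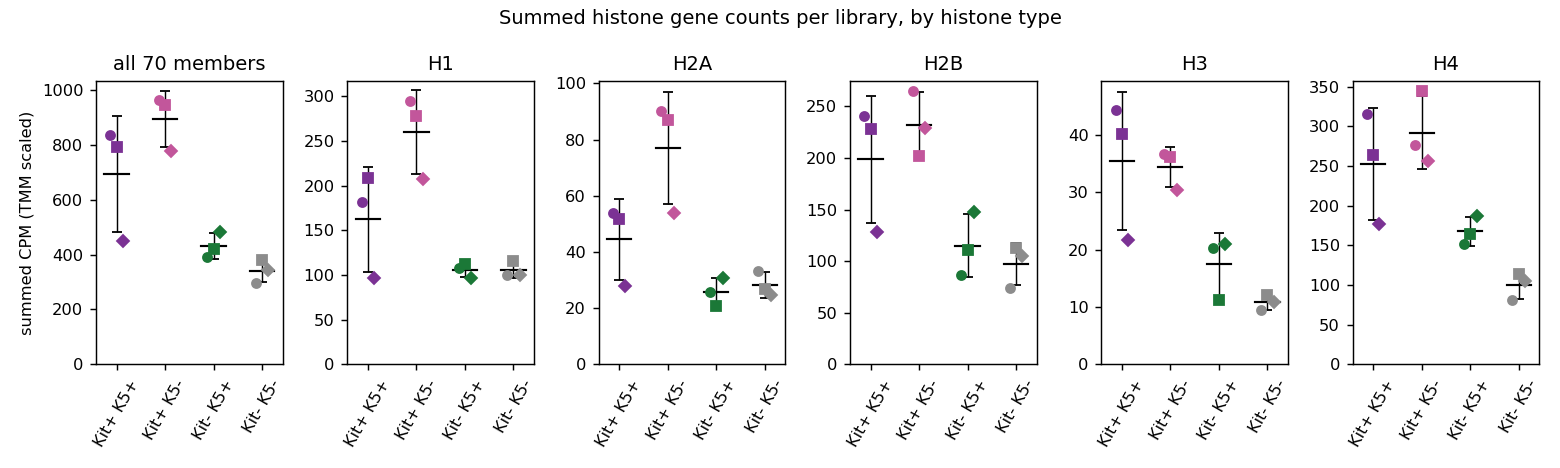
Summed CPM of the 70 members and of each histone type in the 12 libraries, by sorted group (circle, square and diamond are replicates 1, 2 and 3). Horizontal lines are means and bars SD of 3 libraries, and each panel has its own y axis from 0. The 3 Kit+ K5- libraries sum to 778 to 963 CPM, above all 6 Kit- libraries at 298 to 484 CPM.

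In K5- cells, histone genes of each type rose with Kit. Of the 48 tested members, 18 rose in Kit+ K5- against Kit- K5- cells and 0 fell (0 were lower at an unadjusted p under 0.05 too), while 10.2% of all genes tested rose and 11.1% fell. Each of the 48 differences lay above 0 (52.0% of all genes), with a median of 1.56 (all genes, 0.05), and 40 of 48 had libraries that did not overlap between the groups, against 20% of all genes. A member with few counts can pass the filter through the Kit+ groups alone, so these values only describe the members that passed. Without the filter, 61 of 64 members lay above 0, with a median of 1.54 (all genes, 0.16). With the runs of libraries as a block 22 members were called (14.3% of all genes), with DESeq2 24 (12.8%) and with limma-voom 21 (10.8%). The count moved with single libraries. Leaving out Kit- K5- replicate 1 gave 7 calls, leaving out Kit+ K5- replicate 2 gave 8, and leaving out Kit+ K5- replicate 1 gave 10, as did either of the other Kit- K5- libraries. The share of all genes that rose was 4.98%, 4.86% and 8.87% in these fits. It was 5.58% and 5.95% without Kit- K5- replicates 2 and 3. The calls of Hist1h1b, Hist1h1e, Hist1h2bf, Hist1h2bl and Hist1h4d held without any 1 of the 12 libraries.

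Among the linker histones, Hist1h1b, the H1.5 gene, stood at 88.6, 98.9 and 77.6 CPM in the Kit+ K5- libraries and at 19.5, 32.6 and 31.2 CPM in the Kit- K5- libraries. The groups did not overlap, and the difference was 1.67 ± 0.29 (adjusted p = 0.00131). Hist1h1e, the H1.4 gene, was at 123, 114 and 81.3 CPM against 45.4, 47.0 and 38.9 CPM, a difference of 1.28 ± 0.29 (adjusted p = 0.00619). Hist1h1d, the H1.3 gene, also rose, by 1.42 ± 0.37 (adjusted p = 0.0156). Hist1h1c, the H1.2 gene, was at 51.1, 28.4 and 27.2 CPM against 25.1, 21.4 and 18.0 CPM and was not called (0.73 ± 0.43, adjusted p = 0.255). Hist1h1a, the H1.1 gene, was not called (1.24 ± 0.52, adjusted p = 0.110), but was with the block (0.0484) and in a fit of the compared groups alone (0.0372).

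Of 9 tested H2A genes, 2 rose. Hist1h2ak was at 53.4, 52.6 and 24.6 CPM against 18.2, 11 and 10.2 CPM (1.73 ± 0.49, adjusted p = 0.0224). Hist1h2ai was at 2.96, 5.58 and 3.64 CPM against 0.459, 0.536 and 1.02 CPM (2.59 ± 0.65, adjusted p = 0.0117), with few unique windows. Hist1h2an was not called (2.70 ± 0.94, adjusted p = 0.0551), but was with the block (0.0270) and by DESeq2 (0.0176). In the Hist2 cluster, Hist2h2ac had non-overlapping libraries but was not called (1.48 ± 0.65, adjusted p = 0.124).

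H2B held the most calls by number, 7 of 15, and also had the most tested genes of any type. Hist1h2bl was at 39.9, 37.6 and 33.5 CPM against 8.79, 11.1 and 11.2 CPM, with a difference of 1.84 ± 0.28 and the smallest adjusted p of any member (0.000494). Hist1h2bf was at 30.5, 26.3 and 25.2 CPM against 6.75, 11 and 9.9 CPM (1.57 ± 0.30, adjusted p = 0.00227). In both, the 3 libraries of a group lay close together and far from those of the other group. Hist1h2bb, whose promoter is shown above with an octamer, was at 11.9, 14.6 and 8.30 CPM against 2.43, 4.98 and 4.49 CPM (1.55 ± 0.47, adjusted p = 0.0319). The other 4 called genes, Hist1h2bg, Hist1h2bh, Hist1h2bj and Hist1h2bk, rose by 1.68 to 2.18 at lower levels. The most abundant H2B gene, Hist1h2bm, was at 69.0, 47.4 and 86.2 CPM against 24.5, 40.3 and 35.6 CPM. Its libraries did not overlap, but their spread was wide and it was not called (1.01 ± 0.46, adjusted p = 0.141). Hist1h2be gave a difference of 0.95 ± 0.38 (adjusted p = 0.0919).

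H3 genes had low counts, and 3 of 9 rose: Hist1h3e, Hist1h3c and Hist1h3g. Hist1h3e was at 10.6, 8.95 and 7.28 CPM against 2.16, 2.99 and 2.55 CPM (1.80 ± 0.51, adjusted p = 0.0235). Hist1h3c was at 6.34, 6.42 and 6.70 CPM against 1.44, 2.07 and 2.35 CPM (1.73 ± 0.53, adjusted p = 0.0311). Both sets of libraries lay apart from each other with a narrow spread within the Kit+ K5- group. Hist1h3g rose by 2.08 ± 0.60 (adjusted p = 0.0248), and Hist1h3d, at 1.33 ± 0.55, was not called (adjusted p = 0.105).

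Among H4 genes, 3 of 10 rose. Hist1h4d was at 221, 267 and 213 CPM against 65.9, 93.2 and 89.2 CPM. Every Kit+ K5- library lay above every Kit- K5- library, with a difference of 1.5 ± 0.23 (adjusted p = 0.000534). Hist2h4, in the Hist2 cluster, was at 22.3, 32.5 and 16.2 CPM against 4.72, 6.05 and 5.72 CPM (2.11 ± 0.55, adjusted p = 0.0144). Hist1h4c rose by 1.82 ± 0.55 (adjusted p = 0.0296). Hist1h4a was not called (1.88 ± 0.70, adjusted p = 0.0712), but was with the block (0.0407), by DESeq2 (0.0337) and in a fit of the compared groups alone (0.0263). Hist4h4 was not called either (1.38 ± 0.50, adjusted p = 0.0670), but was with the block (0.0496) and by DESeq2 (0.0359).

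**Figure D3:**
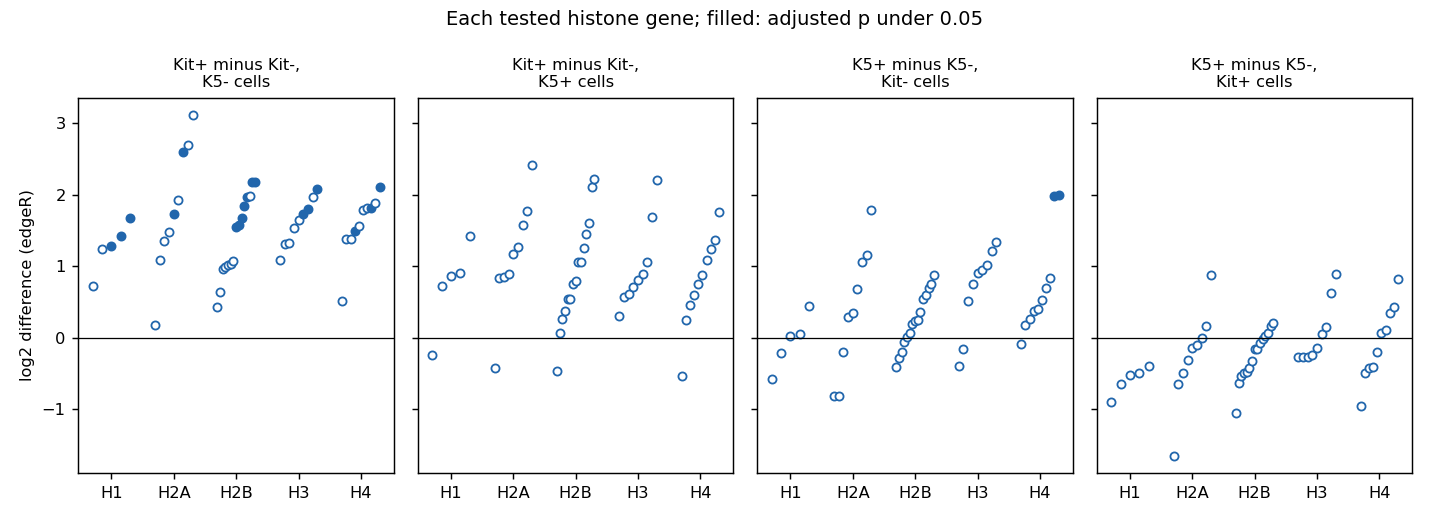
Fitted log2 differences of the 48 tested members in the 4 comparisons, by histone type, with members of a type in order of their value. Filled points have an adjusted p under 0.05 in edgeR's test without a block. In K5- cells 18 points are filled and all 48 lie above 0, in K5+ cells 0 are filled and 44 lie above 0, and for K5 in Kit- cells the filled points are Hist4h4 and Hist1h4i.

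In K5+ cells the same contrast of Kit gave no call at these sample sizes. Of the 48 tested members, 0 rose or fell in Kit+ K5+ against Kit- K5+ cells by edgeR without a block, where 0.335% of all genes tested rose and 0.323% fell. At an unadjusted p under 0.05, 18 members were higher and 0 lower (all genes higher, 8.10%), 18 had higher libraries without overlap (10.2%), and 44 of 48 differences lay above 0 (46.9%) with a median of 0.87 (all genes, -0.05). The same limit of the filter holds here. Without it, 54 of 64 members lay above 0, with a median of 0.93 (all genes, -0.29). With the runs of libraries as a block 2 were called, Hist1h2bj and Hist1h2bl, against 2.54% of all genes. DESeq2 called these and Hist1h2bh, Hist1h3e and Hist1h3g (2.28% of all genes rose), and limma-voom 0 (0.200%). Without a filter on low counts 2 others were called, Hist1h1e and Hist1h2bm (1.29% of all genes rose).

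Hist1h2bl was at 28.4, 34.7 and 19.4 CPM in the Kit+ K5+ libraries and at 12.3, 11.1 and 16.5 CPM in the Kit- K5+ libraries. These did not overlap, and the difference was 1.06 ± 0.28 (adjusted p = 0.0864, and 0.0497 with the block). Hist1h2bj, another H2B gene, was at 7.29, 4.05 and 3.88 CPM against 0.875, 1.24 and 1.15 CPM, or 2.22 ± 0.52 (adjusted p = 0.0667, and 0.0366 with the block). Both were lower in Kit+ K5+ replicate 3 than in the other libraries of that group. Hist1h4d was at 234, 227 and 150 CPM against 107, 134 and 161 CPM. Replicate 3 of the Kit+ K5+ group lay below the highest Kit- K5+ library, and the difference was 0.60 ± 0.23 (adjusted p = 0.187). For Hist1h1b, at 58.7, 52.7 and 31.1 CPM against 20.3, 33.1 and 32.9 CPM, the same replicate 3 overlapped (0.73 ± 0.29, adjusted p = 0.205). Without Kit+ K5+ replicate 3 the members' median was 1.15 and 0 were called.

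Within Kit- cells, 2 of 48 members rose with K5, both H4 genes, against 7.38% of all genes, and 0 fell (9.10% of all genes). Hist4h4, the member on chromosome 6, was at 17.6, 13.9 and 10.7 CPM in Kit- K5+ libraries and at 2.82, 5.67 and 2.14 CPM in Kit- K5- libraries. The groups did not overlap, with a difference of 1.98 ± 0.51 (adjusted p = 0.0175). The call was lost when Kit- K5+ replicate 1 was left out, or Kit- K5- replicate 1 or 3, with an adjusted p of up to 0.0842. Hist1h4i, at 5.5, 3.3 and 2.1 CPM against 0.525, 1.38 and 0.817 CPM, gave 2.0 ± 0.65 (adjusted p = 0.0491), and this call was lost in 11 of 12 fits that left out 1 library, all but that without Kit- K5+ replicate 3. Without Kit- K5- replicate 1 or 3 no member was called. Hist1h4d, with non-overlapping libraries, was not called by edgeR without a block (0.70 ± 0.23, adjusted p = 0.0518), but was with the block (0.0286), by DESeq2 (0.0262) and in a fit of the compared groups alone (0.0438). Over the 48 members the median was 0.36 (all genes, 0.04), 36 lay above 0 (52.1%), and 8 had higher libraries without overlap, a share near the 17.0% of all genes. By type the medians were 0.46 for H4, 0.91 for H3, 0.23 for H2B, 0.34 for H2A and 0.02 for H1.

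Within Kit+ cells no member was called for K5 by edgeR, DESeq2 or limma-voom, nor was any other gene by edgeR without a block (0% of all genes). DESeq2 called 0.700% of all genes in either direction and limma-voom 0%. At an unadjusted p under 0.05, 4 members were lower with K5 and 0 higher, where 4.53% of all genes were lower and 2.29% higher. The median was -0.22 (all genes, -0.04), 15 of 48 differences lay above 0 (46.9%), and 5 members had lower libraries without overlap (5.92% of all genes). Single libraries moved the median: with replicates 1, 2 or 3 of the Kit+ K5+ group left out it was -0.41, -0.37 and -0.01, and with 1 of the Kit+ K5- libraries left out it was -0.35 to -0.14. Hist1h2ak showed the widest gap, at 14, 20.2 and 7.11 CPM with K5 against 53.4, 52.6 and 24.6 CPM without (-1.65 ± 0.49, adjusted p = 0.419). Without a filter on low counts it was called (adjusted p = 0.00334). The other 3 were Hist1h1b (-0.89 ± 0.29, adjusted p = 0.506), Hist1h1e and Hist1h2bb. In Hist1h2ak, replicate 3 was the lower end of each Kit+ group. All 5 tested H1 genes lay below 0, with a median of -0.52.

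The difference between these comparisons was tested as an interaction. By edgeR, DESeq2 and limma-voom, 0 of 48 members were called, where edgeR called 2.81% of all genes above 0 and 1.21% below 0. In either direction, DESeq2 called 8.30% of all genes and limma-voom 3.21%. At an unadjusted p under 0.05, 4 members were below 0 and 0 above, where 9.77% of all genes were below and 9.04% above. The median was -0.65 (all genes, -0.09) and 8 of 48 lay above 0 (45.5%), so the Kit difference was smaller in K5+ than in K5- cells for most members without a call for any. The smallest adjusted p was that of Hist1h4d (-0.89 ± 0.32, adjusted p = 0.147). Asked whether the 4 groups differed at all, edgeR called 18 of 48 members, where it called 25.7% of all genes. Without Kit- K5- replicate 1 it called 10 members, and the share of all genes in that fit is not given here. With the block it called 21 (36.8% of all genes), adding Hist1h1a, Hist2h2ac and Hist4h4.

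**Figure D4:**
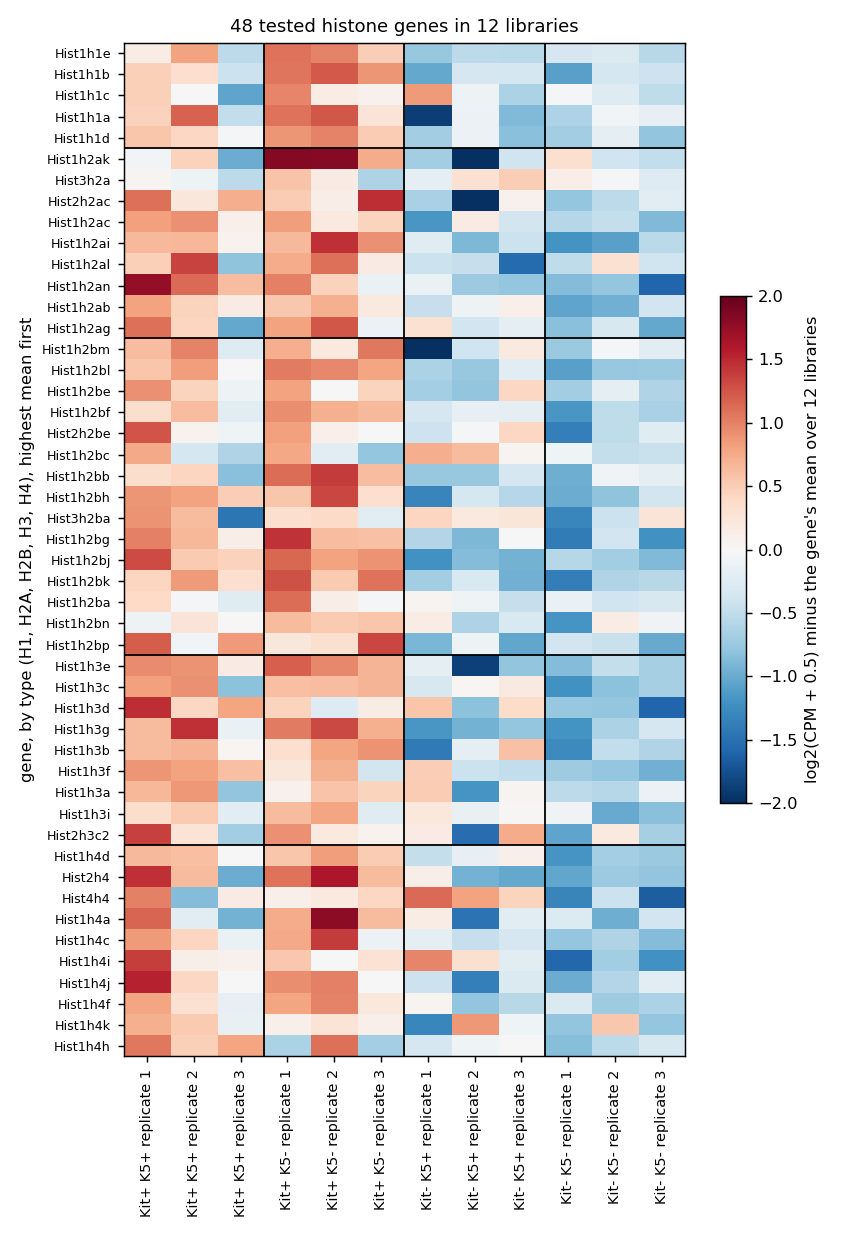
Level of each of the 48 tested members (rows, by type and then by mean) in the 12 libraries (columns, by group), as log2(CPM + 0.5) minus the gene's mean over the libraries. Kit+ libraries are mostly above a gene's mean and Kit- libraries mostly below it, and the column of Kit+ K5+ replicate 3, whose members sum to 451 CPM, is paler or bluer than the other Kit+ K5+ columns.

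Members of the Hist3 cluster were not called in any comparison. For Kit in K5- cells, the H2A gene Hist3h2a was at 11.3, 8.43 and 4.66 CPM against 8.2, 7.28 and 6.13 CPM, which overlapped (0.18 ± 0.40, adjusted p = 0.799). Its neighbour Hist3h2ba, an H2B gene, gave 0.64 ± 0.65 (adjusted p = 0.536). The Hist3 cluster as a whole summed to 13 ± 4.33 against 10.2 ± 0.703 CPM in these groups (SD, n = 3), a ratio of 1.28, where the Hist1 members gave 2.66 and the Hist2 members 2.82. Whether the clusters differ was not tested. Hist1h2bc and Hist1h4k, named after their values were seen, also had low differences (0.43 ± 0.49 and 0.52 ± 0.94) and overlapping libraries.

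Genes known for testis expression were at or near the floor. Hist1h1t had 0 to 0.875 CPM and Hist1h2aa 0 to 0.423 CPM over the 12 libraries, and neither was tested. Hist1h2ba, the testis H2B gene, was at 1.15 to 4.44 CPM, and its difference for Kit in K5- cells of 0.98 ± 0.62 was not called (adjusted p = 0.293). Of its windows, 61.8% are unlike other genes.

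Head-to-head partners did not always share a call. Both partners were tested in 6 of the 14 pairs, and in the pair of Hist1h2ai and Hist1h2bl both rose in K5- cells with Kit (2.59 and 1.84). In the pair of Hist1h2ac and Hist1h2bc neither was called (1.36 ± 0.55 and 0.43 ± 0.49), nor in that of Hist2h2ac and Hist2h2be or of Hist1h2an and Hist1h2bp. Hist1h2bj and Hist1h2ak rose, while their partners Hist1h2ag (3.12 ± 1.31) and Hist1h2bn (1.07 ± 0.69) were not called. These pairs were named after their values were seen.

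The differences were also summarised by sequence features. For Kit in K5- cells, the median was 1.4 over 16 tested members with 300 or more annotated bases after the stem-loop, 1.76 over 16 with fewer, and 1.55 over 16 without a match. It was 1.55 over 5 tested H2B genes with ATTTGCAT in the promoter and 1.62 over 8 without it. Members with at least 50% unique windows had a median of 1.4 with 10 of 30 called, and those with fewer 1.82 with 8 of 18 called. These medians rest on members that passed the filter and were not tested against each other.

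The stem-loop binding protein and the U7 factors were not called. In K5- cells Slbp, the gene of the stem-loop binding protein, was at 83.3, 78.5 and 82.6 CPM with Kit and 67.6, 63.0 and 69.1 CPM without, which did not overlap (0.29 ± 0.20, adjusted p = 0.341). In K5+ cells it was at 84.4, 82.4 and 89.9 CPM with Kit and 43.4, 65.9 and 75.2 CPM without (0.48 ± 0.20, adjusted p = 0.230). Lsm10 and Lsm11, proteins of the U7 particle, and Casp8ap2, a factor needed for histone pre-mRNA processing, were not called in any comparison. Of 16 tested genes of histone mRNA processing, 1 rose with Kit in K5- cells, Ncbp1 of the cap binding complex (0.76 ± 0.22, adjusted p = 0.0243), with a median of 0.32. With the block 4 of the 16 did, where 14.3% of all genes did. Npat, the coactivator of histone genes, was not called (-0.22 ± 0.28, adjusted p = 0.636). In the list of histone gene transcription 4 of 12 rose, where 10.2% of all genes did (median 0.54), led by cyclin A2 (Ccna2, 1.25 ± 0.18, adjusted p = 0.000377) and Pou2f1, which encodes Oct-1 (1.09 ± 0.26, adjusted p = 0.00927). Ccna2 and Pou2f1 also rose with K5 in Kit- cells (0.82 ± 0.18 and 0.98 ± 0.26, adjusted p = 0.00864 and 0.0216), where Hinfp, which acts on H4 promoters, fell (-1.11 ± 0.36, adjusted p = 0.0493).

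Of all genes tested, 10.2% rose with Kit in K5- cells, and 14.3% did with the block. Of 21 histone chaperones and importers, 5 rose in this comparison, and 13 did with the block (median 0.54). They included Asf1b, which hands H3 and H4 to chromatin assembly (1.96 ± 0.28, adjusted p = 0.000262), and Chaf1b of the chromatin assembly factor CAF-1 (1.41 ± 0.25, adjusted p = 0.00127). Variant histone genes outside the Hist clusters, whose mRNAs mostly carry poly(A), gave 5 of 11 (median 0.62), among them H2afx, the H2A variant phosphorylated at DNA breaks (1.17 ± 0.23, adjusted p = 0.00318), and the centromeric H3 gene Cenpa (0.99 ± 0.21, adjusted p = 0.00489). Of 27 genes of S phase and DNA synthesis, 10 rose (16 with the block, median 0.71), led by the ribonucleotide reductase subunit gene Rrm2 (2.02 ± 0.30, adjusted p = 0.000431), and of 20 mitosis genes 17 did (median 1.04), led by Prc1 (1.01 ± 0.16, adjusted p = 0.000646). In K5+ cells with Kit, the calls without and with the block were 0 and 9 of 27 for S phase, 0 and 5 of 21 for chaperones, 0 and 3 of 12 for transcription and 1 and 5 of 20 for mitosis. Of all genes tested, 0.335% rose there without the block and 2.54% with it. None of these lists fell in either comparison. The lists were chosen with results of these data known, and the histone members' medians of 1.56 and 0.87 in these comparisons were not tested against them.

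RNAs without a poly(A) tail other than histone mRNA were followed because the library preparation after RNA extraction is not described in the sources used here. Of 22 such genes, 17 were in the table, 10 were tested, and Rnu7, Snora73a and Snora73b were at 0 in all libraries. For Kit in K5- cells 0 of 10 rose, and 1 fell, Malat1 (-1.10 ± 0.23, adjusted p = 0.00466). The list's median was 0.89 (all genes, 0.05), with 7 of 10 differences above 0. Its summed CPM went the other way, at 2180 to 3699 CPM in Kit+ K5- and 5327 to 7493 CPM in Kit- K5- libraries. The ratio of these group means was 0.472, so the median and the sum of this list disagree in direction. The tested Rn7sk was at a mean of 62.2 CPM with Kit and 98.5 CPM without (-0.67 ± 0.38, adjusted p = 0.245).

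Set against the S phase genes of the same library, the histone sum gave 30.8, 27.7 and 26.3 CPM per 100 CPM of the S phase list in Kit+ K5- libraries and 16.7, 18.7 and 19.1 in Kit- K5- libraries, which did not overlap. In Kit+ K5+ libraries the values were 27.6, 26.6 and 15.2, and in Kit- K5+ libraries 27.1, 20.4 and 22.2. Kit+ K5+ replicate 3 had the lowest value of all 12 libraries. Its S phase sum, 2962 CPM, was close to the 3033 and 2976 CPM of replicates 1 and 2, and its mitosis sum, 6214 CPM, was the highest of the 12, so that in this library the histone transcripts were low while the other cycle genes were not. Its mitochondrial share, 30.9% of counts, was also the highest of the 12 libraries. Kit+ K5- replicate 3 had a share of 27.3% and a histone sum of 778 CPM, the lowest of its group. In Kit- K5+ cells the library with the lowest mitochondrial share (replicate 1, 24.2%) had the lowest histone sum. The part of the mitochondrial share in these values was not tested. In Kit+ K5- replicate 1, mast cell genes summed to 4971 CPM against 128 to 224 CPM in the other libraries of that group and 2.75 to 48.1 CPM in all libraries of the other groups. Mast cell genes thus moved with Kit in K5- cells in each library, and their part in the histone difference was not tested. Without replicate 1 the Kit ratio of histone sums in K5- cells was 2.53 and the members' median 1.55, and 10 members were called (8.87% of all genes rose). The other Kit+ K5- libraries still held 128 and 224 CPM of mast cell genes, against 19.2 to 46.6 CPM in Kit- K5- libraries, so leaving out replicate 1 does not remove these genes.

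**Figure D5:**
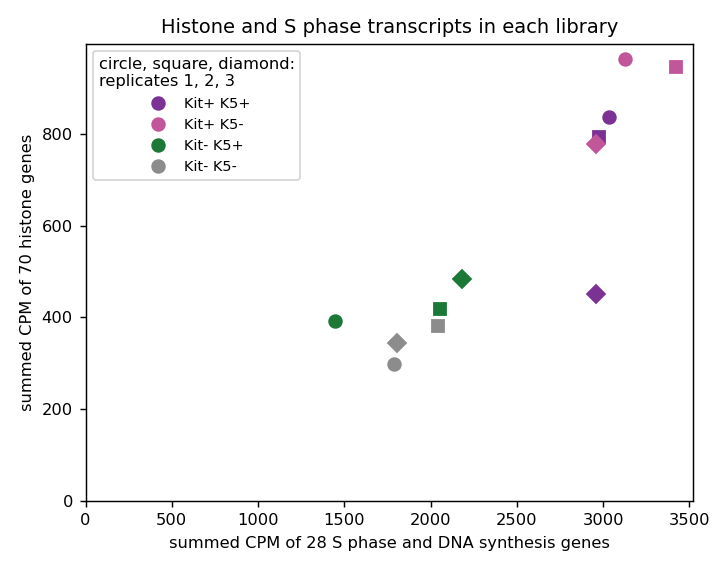
Summed CPM of the 70 histone genes (y axis) against summed CPM of 28 S phase and DNA synthesis genes (x axis) in the 12 libraries, coloured by group (circle, square and diamond are replicates 1, 2 and 3), with both axes from 0. Of the 6 Kit+ libraries, which lie at 2958 to 3424 CPM on the x axis, 5 have histone sums of 778 to 963 CPM, and Kit+ K5+ replicate 3 lies below them at 451 CPM.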

How the data were processed

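Submandibular gland cells of embryonic day 15 were profiled by RNA-seq in 12 libraries, 3 per sorted group. Per the labels' protocols, single 50 nt reads of total RNA were aligned to GRCm38 (STAR 2.4.2a) and gene counts made with featureCounts. Its version was 1.4.6-p3, per the submitters' processing notes, which also list Picard 1.129 and the build GRCm38.p3. The deposited values are whole-number counts of reads per gene, which the authors had not normalized. The sources used here do not state the annotation release, the strand setting, the handling of multiply mapped reads or any poly(A) selection or rRNA removal. The series matrix and the single tables differed in 0 cells.

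The analysis used edgeR 4.0.16 in R 4.3.3, with filterByExpr, TMM scaling, 1 quasi-likelihood fit over 12 libraries with 1 coefficient per group (8 residual degrees of freedom), and Benjamini-Hochberg adjustment over 17030 genes at 0.05. DESeq2 1.42.0, limma-voom (limma 3.58.1), other scalings and filters, thinning, the compared groups alone and leaving out libraries or runs were alternatives. The fit was tested on simulated data. Transcript sequences and positions are from GENCODE M21, promoters from RefSeq.

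Replicate numbers follow the library numbers 1 to 4, 5 to 8 and 9 to 12, runs that each hold all 4 groups. Over all genes tested, deviations of same-run libraries from their group means correlated at 0.108 to 0.408 between the groups of each of the 4 pairwise comparisons. Every pair was over 0.1, so the runs were taken as a possible pairing there. The main fit had no block, and the fit with runs as a block is given beside it. Over the tested histone members alone, the same correlations were -0.252 to 0.403, so the pairing was not seen in every pair of libraries for them. The pairing comes from the data, since the labels do not say that a run shares a sort. For the interaction the lowest value over all genes tested was 0.0928, and no pairing was assumed.

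Named were the 3 most abundant members of each type, members called without a block, testis genes, members outside the large clusters, 5 fixed processing and transcription factors and up to 3 called genes per list. Others are named after their values were seen. The members and lists were chosen with earlier results of these data known.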

Additional observations from a re-analysis of the deposited data

How the results depend on the processing

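No alternative turned the direction of a called member or of the ratio of sums over the 70 members. By type, scaling to library totals alone turned the K5+ to K5- ratio of sums in Kit- cells for H2B (1.18 to 0.999) and H1 (1.004 to 0.852), and in Kit+ cells for H3 (1.03 to 0.916). It also moved the median for K5 in Kit- cells from 0.36 to 0.12 (all genes, 0.04 to -0.19) and that for K5 in Kit+ cells from -0.22 to -0.37 (all genes, -0.04 to -0.22). The latter ranged from -0.41 to -0.01 with 1 library left out.

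Counts of called members depended more on the processing. For Kit in K5- cells, 18 called became 11 without a filter on low counts (10 of them among the 18), 6 without library run 1, 3 without run 2, and 7 to 19 when 1 library was left out. The share of all genes tested that rose moved from 10.2% to 5.23% without a filter, 8.04% without run 1 and 1.38% without run 2. With 1 library left out it was 4.86% to 9.98%. For K5 in Kit- cells, 2 called became 1 with limma-voom, library totals alone, no filter, thinning or without run 2, 0 without run 1 or run 3, and 0 to 2 without 1 library. Of all genes, 7.38% rose as reported, and 7.44%, 4.46%, 4.96%, 8.02% and 0.812% in the fits with 1 call, in that order. The share was 4.19% without run 1, 3.79% without run 3, and 2.68% to 7.99% without 1 library. For Kit in K5+ cells, 0 called became 5 with DESeq2, 2 without a filter and 2 with the replicate block, and 0 without any 1 library. Of all genes, 0.335% rose as reported, 2.28% with DESeq2, 1.29% without a filter and 2.54% with the block. For K5 in Kit+ cells, 0 called became 1 without a filter (Hist1h2ak, adjusted p = 0.00334), where 0.874% of all genes were called in either direction. For any difference among the groups, 18 became 5, 0 and 9 without runs 1, 2 and 3, and 10 to 19 without 1 library. The shares of all genes called in those fits are not given here, so these counts are not read as a change of the histone genes in particular. A run left out leaves 2 libraries per group. The cause of the other shifts was not tested. With the replicate block, the pairing of runs changed no call of a histone gene in the 4 comparisons, the interaction or the test of any difference beyond those given with the results. Depth limits the members under 1 CPM, where a few counts decide a value.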
